A study of Drosophila melanogaster with 10 samples.

Results

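The genes described here are chinmo and br, 2 of the 13041 genes in a table of gene expression in wing imaginal discs of Drosophila melanogaster. They were chosen by symbol, each matched 1 row of the table, and both passed the filter on low values with 10453 genes in all. A wing imaginal disc is a larval epithelium from which the adult wing and the notum of the thorax develop. All libraries came from discs of yw larvae, for which the labels name no transgene, treatment or second genotype. The age of the larvae was counted from the L2/L3 molt and was 6, 15, 25, 35 or 48 h. The oldest larvae were wandering, the stage at which they leave the food before pupariation. Each time has 2 libraries, called A and B. Since the labels leave unsaid if A and B were grown apart, the p-values reflect the spread between libraries, which may be technical.

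Both genes encode transcription factors with a BTB domain, through which the proteins pair, and zinc fingers, which bind DNA. Chinmo (chronologically inappropriate morphogenesis) is known from neuroblasts, neurons and imaginal discs as a factor of early larval identity, and Broad, the product of br, as a factor induced by the steroid ecdysone that directs the passage from larva to pupa. In larval tissues each is known to oppose the expression of the other. The series follows the instar in time, and the comparisons below ask when the level of each gene changed and how the balance of the 2 moved.

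chinmo (FBgn0086758) lies on the plus strand of chromosome 2L from 1651258 to 1704682 in the dm6 assembly, and the Ensembl BDGP6.54 annotation gives it 6 transcripts with 2 different starts, 3 different ends and 12618 exonic bases in 10 blocks. br (FBgn0283451) lies on the plus strand of chromosome X from 1575132 to 1664869, with 16 transcripts, 9 starts, 6 ends and 20201 exonic bases in 17 blocks. The Broad isoforms differ in their zinc fingers, and the table holds 1 value per gene, so isoforms were not told apart. Exons of chinmo overlap no other gene of the table. Exons of br share 189 bases with Mur2B, a gene on the opposite strand, whose own signal lay between 34.4 and 120 in the 10 libraries, against at least 3241 for br.

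The values are signal, which is reads per gene divided by 1 size factor per library. The libraries held 16814685 to 38003104 reads over genes, and 1 read equalled a signal of 0.596 to 1.40. Both genes were well counted where their reads were fewest: chinmo had 1891 reads in 48 h A (exact 95% Poisson interval 1806.72 to 1978.2, counting error only), and br had 3216 reads in 6 h B (3105.8 to 3329.11). Of 12 marker genes of wing disc epithelium, among them vg, nub and ap, 12 were in the table and 0 were without reads in any library. The 15 h pair was less alike than the rest: across the tested genes the Spearman coefficient between A and B was 0.870, and for the remaining pairs it was 0.976 or more.

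chinmo was high at the start of the instar and low at wandering. Its signal was 9825 in 6 h A and 9509 in 6 h B, 7801 in 15 h A and 11967 in 15 h B, and 7513 in 25 h A and 7055 in 25 h B. It then read 5170 in 35 h A and 4596 in 35 h B, and 1264 in 48 h A and 1198 in 48 h B. The 6 h and 15 h libraries overlapped, every 6 h and 15 h library was above both 25 h libraries, and from 25 h on each time was below the time before without overlap. This order, which was taken from the values of chinmo itself, was found in 2.83% of the genes tested. In order of age the means were 9667 ± 223, 9884 ± 2946, 7284 ± 324, 4883 ± 406 and 1231 ± 46.7 (SD, n = 2 each).

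br went the other way. Its signal was 3241 in 6 h A and 4292 in 6 h B, 5529 in 15 h A and 8250 in 15 h B, and 10714.9 in 25 h A and 12425 in 25 h B. It was 18028 in 35 h A and 17486 in 35 h B, and 24338 in 48 h A and 22154 in 48 h B. Both libraries of every time were above both libraries of the time before, an order found in 1.91% of the genes tested. The means were 3766 ± 743, 6890 ± 1924, 11569.8 ± 1209, 17757 ± 383 and 23246 ± 1545 at 6, 15, 25, 35 and 48 h (SD, n = 2 each).

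**Figure D1:**
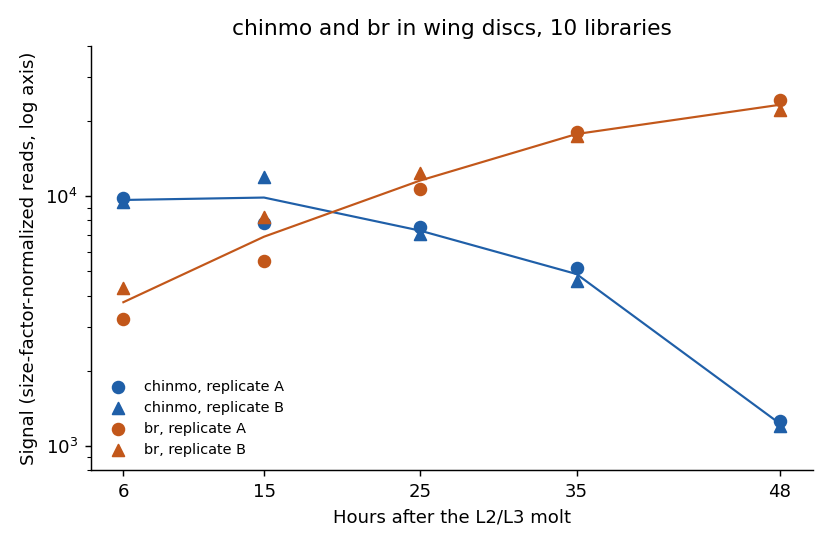
Signal of chinmo (blue) and br (orange) in each library against hours after the molt, on a log axis; circles are replicate A, triangles replicate B, and lines join the means of the 2 libraries. The mean of chinmo is 9667 at 6 h and 9884 at 15 h, where the libraries lie apart (7801 in A and 11967 in B). It ends at 1231, while the mean of br climbs from 3766 to 23246.

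Over the whole span both genes changed. In the limma fit on log2(signal + 1), chinmo fell by 2.97 between 6 and 48 h (SE 0.19, adjusted p 0.000219), from 9667 to 1231 or 7.85-fold. br rose by 2.64 (SE 0.21, adjusted p 0.000357), 6.22-fold. Of all genes tested, 26.8% were lower and 22.3% higher at 48 h than at 6 h. The change over the 5 times passed the moderated F test for chinmo (F 89.4, adjusted p 0.00102) and for br (F 51.1, adjusted p 0.00187), as it did for 38.4% of the genes tested. These are bulk samples, in which fewer cells of a type and less RNA per cell cannot be told apart. The median change of all genes tested was -0.10 between 6 and 48 h, and it became 0.23 when the libraries were set to a common median and 0.33 after quantile normalization. Set against that median, the change of chinmo was -2.88, -2.88 and -3.19 on these 3 scales and that of br 2.73, 2.73 and 2.50.

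Between neighbouring times chinmo passed the threshold in 1 step, the last. For chinmo the change from 6 to 15 h was -0.00056 (95% interval -0.44 to 0.44), so a change of either sign within that range cannot be told from the spread. It was -0.41 from 15 to 25 h (adjusted p 0.362) and -0.58 from 25 to 35 h (95% interval -1.02 to -0.14, adjusted p 0.143). From 35 to 48 h chinmo fell by 1.98 (SE 0.19, 95% interval -2.43 to -1.54, adjusted p 0.0229), 3.96-fold, with both 48 h libraries below both 35 h libraries. That step made up 66.8% of its log2 fall from 6 to 48 h, and 0.239% of the genes tested were lower in it. The call is a narrow one. The adjusted p was 0.0633 in edgeR on the recovered reads, 0.0604 after setting a common median and 0.0858 after quantile normalization, while the change itself stayed between -2.02 and -1.97 there. Leaving out any 1 library of 6, 25, 35 or 48 h also took its adjusted p above 0.05 (up to 0.180), with a change of -2.07 to -1.90, and leaving out 15 h A or 15 h B did not. Without both 15 h libraries, whose spread enters every comparison, the adjusted p of this step was 0.000640, and that from 25 to 35 h passed as well (0.00556).

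The 6 h to 15 h value of chinmo depended on which 15 h library was kept. Without 15 h A the change was 0.31 (adjusted p 0.0344) and without 15 h B it was -0.31 (adjusted p 0.0411), so each passes the threshold in the opposite direction. In each of these fits 15 h is a single library, which is assumed to vary like the other times, and the spread within 15 h no longer enters the error. For br the same step was 1.15 without 15 h A (adjusted p 0.00484) and 0.57 without 15 h B (adjusted p 0.312). Over all genes tested, 1.32% were higher and 2.90% lower in that step with both libraries, 19.1% and 17.8% without 15 h A, and 18.9% and 9.64% without 15 h B.

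For br 0 of the 4 steps between neighbouring times passed the threshold in limma, 3 had an unadjusted p under 0.05, and each had a positive value. edgeR also called 0 of them. DESeq2 called 2, from 6 to 15 h and from 15 to 25 h, in which it called 666 and 383 of all 10453 genes higher. The changes were 0.86 from 6 to 15 h (adjusted p 0.0725), 0.77 from 15 to 25 h (0.225), 0.62 from 25 to 35 h (0.163) and 0.39 from 35 to 48 h (95% interval -0.11 to 0.89, adjusted p 0.556). Few genes were called in these steps: 0.124% were higher and 0.00957% lower at 25 h than at 15 h, 0.851% higher and 3.09% lower at 35 h than at 25 h, and 0.153% higher at 48 h than at 35 h. Without both 15 h libraries the step from 25 to 35 h passed for br (adjusted p 0.0240). Over longer intervals the rise of br passed. It rose by 1.63 from 6 to 25 h (adjusted p 0.00593), by 1.39 from 15 to 35 h (0.0132) and by 1.01 from 25 to 48 h (0.0278). The shares of genes called higher in those intervals were 8.93%, 7.19% and 3.30%. By 35 h br had made 85.3% of its log2 rise. The 25 to 48 h call was lost when any 1 of the 25, 35 or 48 h libraries was left out (adjusted p up to 0.175), and it missed the threshold with edgeR (0.0518), with a common median (0.0521) and after quantile normalization (0.0770).

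chinmo over the same intervals gave -0.41 from 6 to 25 h (adjusted p 0.160, where 8.01% of genes were lower), and it fell from 15 to 35 h (log2 -0.99, adjusted p 0.0229, 8.53% lower) and from 25 to 48 h (log2 -2.56, adjusted p 0.00200, 7.13% lower). The 15 to 35 h calls were lost for both genes without 35 h A or 35 h B (adjusted p up to 0.151 for chinmo and 0.102 for br), and for chinmo also without 48 h A or 48 h B (0.0535 and 0.0534). With array weights both were lost too (0.133 for chinmo and 0.140 for br), and that of chinmo also with quantile normalization (0.125) and a common median (0.117). The 6 to 25 h change of chinmo, in turn, passed with array weights (0.0148), without both 15 h libraries (0.00427) and without 15 h A or 15 h B (0.00430 and 0.00458). The difference between the change of chinmo from 25 to 48 h and its change from 6 to 25 h was tested directly. It was -2.15 (SE 0.32, 95% interval -2.92 to -1.39, adjusted p 0.0352), which means a larger fall after 25 h, and 1.47% of genes gave a negative call in this test. The 2 intervals differ in length, and the changes were not scaled per hour. In edgeR the adjusted p of that difference was 0.0581, after quantile normalization it was 0.126, and with 1 library left out it reached 0.257. The same difference for br was -0.62 (95% interval -1.49 to 0.25, adjusted p 0.514).

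**Figure D2:**
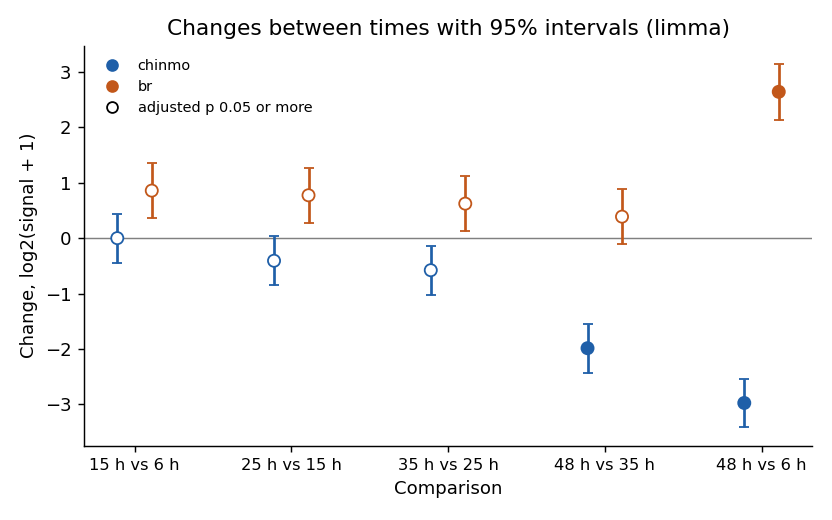
Change of chinmo (blue) and br (orange) between times on the log2(signal + 1) scale with 95% intervals from limma; filled points have an adjusted p under 0.05. The step of chinmo from 35 to 48 h is -1.98 and filled, the 4 neighbouring steps of br are open and shrink from 0.86 to 0.39, and both genes are filled for 48 h against 6 h.

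To compare the levels of the 2 genes, signal was divided by the length of their merged exons. On this scale chinmo had means of 766, 783, 577, 387 and 97.6 per kb at the 5 times, and br had 186, 341, 573, 879 and 1150.74 per kb. At 6 h between 24.1% and 25.0% of the genes with a length had a higher level per kb than chinmo, and at 48 h 61.7% to 62.0% did. For br these shares were 57.6% to 62.9% at 6 h and 13.1% to 14.5% at 48 h.

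The ratio of br to chinmo per kb was 0.206 in 6 h A and 0.282 in 6 h B, 0.443 in 15 h A and 0.431 in 15 h B, and 0.891 in 25 h A and 1.10 in 25 h B. It reached 2.18 in 35 h A and 2.38 in 35 h B, and 12.0 in 48 h A and 11.5 in 48 h B. No library overlapped with the neighbouring time, and the smallest gap, between 6 and 15 h, was 0.61 on the log2 scale. An exact permutation test of 2 libraries against 2 cannot go below p = 0.333, and no other test of the ratio between times was run. Over all 10 libraries the log2 ratio rose with hours (Pearson r 0.989, permutation p 1e-05, the smallest that 100000 resamples give, adjusted p 3e-05; Spearman rho 0.985, permutation p 2e-05). Without the 2 libraries farthest from the median hour, both of 48 h, r was 0.992. Each gene alone was related to hours as well, with r -0.906 for chinmo (permutation p 9e-05, rho -0.936) and 0.964 for br (permutation p 3e-05, rho 0.985), and without the 48 h libraries r was -0.873 and 0.973. The p-values of r were adjusted over these 3 relations to at most 9e-05. The libraries of 1 time share their hour, yet the permutations shuffled all 10 libraries as if each were independent. Where A and B of a time are not independent, the permutation p-values given here, adjusted or not, are too small. A permutation of whole times was not run, so r and rho describe these libraries.

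From the mean of the log2 ratios, the ratio was 1.81-fold higher at 15 h than at 6 h, 2.27-fold higher at 25 h than at 15 h, 2.30-fold higher at 35 h than at 25 h and 5.18-fold higher at 48 h than at 35 h. In arithmetic terms chinmo contributed 83.7% of the last step on the log2 scale and br the remainder, and with 1 library left out the share of chinmo was 81.1% to 86.4%. Its share of the earlier steps was less settled. It was 0.0660% of the first step (-36.8% to 35.2% with 1 library left out, where a negative share means that chinmo moved against the ratio), 34.6% of the second (8.58% to 59.7%) and 48.2% of the third (43.4% to 52.5%). The ends of the ranges for the first and second step came from leaving out 15 h A or 15 h B, and those for the third from leaving out 35 h B or 35 h A. From 6 to 48 h the ratio rose 48.9-fold, of which chinmo gave 53.0%. From 6 to 35 h it rose 9.44-fold, of which chinmo gave 30.5%.

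The hour at which the ratio passed 1 depends on the length used. With merged exons it was 0.995 ± 0.148 at 25 h (SD, n = 2), with 1 library on either side of 1. With the longest transcript of each gene, 12385 bases for chinmo and 9822 for br, the 15 h libraries gave 0.894 and 0.869 and the 25 h libraries 1.798 and 2.22, so the crossing lay between 15 and 25 h. The fold changes of the ratio over time are the same with either length.

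**Figure D3:**
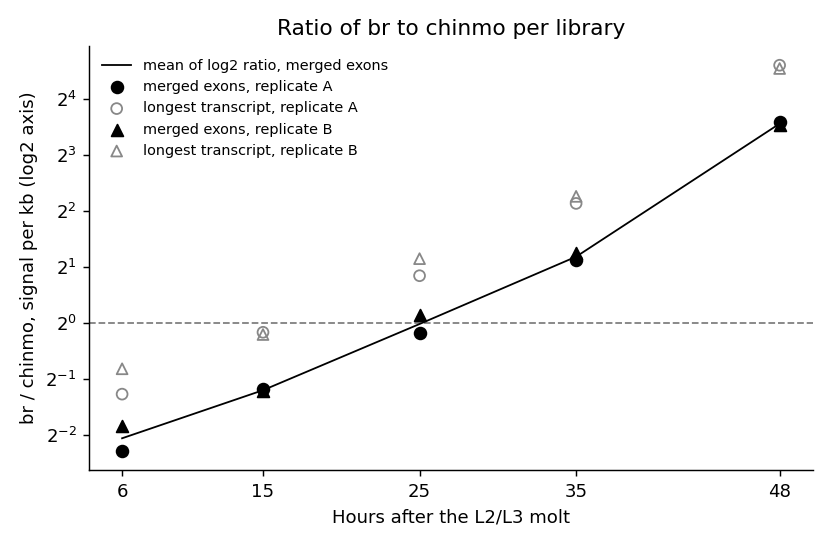
Ratio of br to chinmo in signal per kb for each library against hours, on a log2 axis with a dashed line at 1; filled points use merged exons, open points the longest transcript, and the line joins the means of the log2 ratio. The ratio goes from 0.206 and 0.282 at 6 h to 12.0 and 11.5 at 48 h, and A and B lie close together at 15 h (0.443 and 0.431).

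The 15 h libraries differed by a similar factor in both genes: 15 h B was higher 1.53-fold for chinmo and 1.49-fold for br. The ratio of the 2 genes therefore differed by only 0.04 on the log2 scale between 15 h A and B. At that time 42.4% of the genes tested had a wider gap between A and B than chinmo and 45.01% a wider gap than br. The summed signal of the 12 wing disc epithelium markers was 48634 in 15 h B and 32731 in 15 h A, a factor of 1.49. Summed trypsin and other gut markers stood at 358798 in 15 h A and 5143 in 15 h B, and 3 of the 10 gut marker symbols (gammaTry, lambdaTry and thetaTry) had a gene without reads in at least 1 library. Per 1000 units of disc marker signal, a scale chosen after these values were seen, chinmo was 238 and 246 in 15 h A and B, and br was 169 and 170. For chinmo the other pairs read 305 and 288 (6 h), 160 and 145 (25 h), 79.9 and 69.5 (35 h) and 19.0 and 17.5 (48 h), so that each time was below the time before. For br they read 101 and 130 (6 h), 228 and 256 (25 h), 279 and 264 (35 h) and 366 and 323 (48 h), each time above the time before. The mean disc marker sum itself was 2.07-fold higher at 48 h than at 6 h.

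Summed markers of blood cells and muscle were also lower late in the instar, as chinmo was. The summed signal of 10 haemocyte (blood cell) markers, with Hml and NimC1 among them, in libraries A and B was 126846 and 193913 (6 h), 71187 and 35212 (35 h) and 11804 and 14633 (48 h), and 0 of the 10 genes were without reads in a library. Its mean was 4.02-fold lower at 48 h than at 35 h, against 3.97-fold for the mean of chinmo. That fold belongs to the sum and not to each marker. NimC1 (184 and 108 at 35 h, 124 and 187 at 48 h), eater and srp overlapped between the 2 times. Hml, PPO1, PPO2, Pxn, He, lz and Nplp2 were lower at 48 h in both libraries, Hml with 21975 and 11665, then 5009 and 4891. The 3 markers of differentiated muscle found in the table were 6.29-fold lower at 48 h than at 35 h and 34.0-fold lower than at 6 h. Within the pairs the haemocyte sum was higher in the same library as chinmo at 3 of 5 times and the muscle sum at 4 of 5. The haemocyte sum of A over B was 0.654, 0.847, 1.09, 2.02 and 0.807 from 6 to 48 h in the order of the times. In the same order that of the muscle sum was 0.713, 0.923, 1.18, 2.16 and 1.42, and that of chinmo 1.03, 0.652, 1.06, 1.12 and 1.06. Markers of neurons, glia and neuroblasts, cells in which chinmo is known to act, had summed levels at 6 h that were 1.42, 0.812 and 0.998 times those at 48 h. Single members differed from these sums. The glia sum was mostly nrv2, with 4223 and 3947 at 6 h and 5769 and 6206 at 48 h. By contrast repo, moody and Mdr65 were lower at 48 h, moody with 560 and 622, then 203 and 176. Of the neuron markers nSyb, para, brp, Syt1 and ChAT were lower at 48 h, Syt1 with 433 and 448, then 82.2 and 123. The neuron marker elav was higher (620 and 658, then 819 and 794). Fat body markers took 15.8% and 8.73% of all signal in 25 h A and B and 0.201% to 1.79% in the other libraries. The part of these cells in the values of chinmo and br was not tested.

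**Figure D4:**
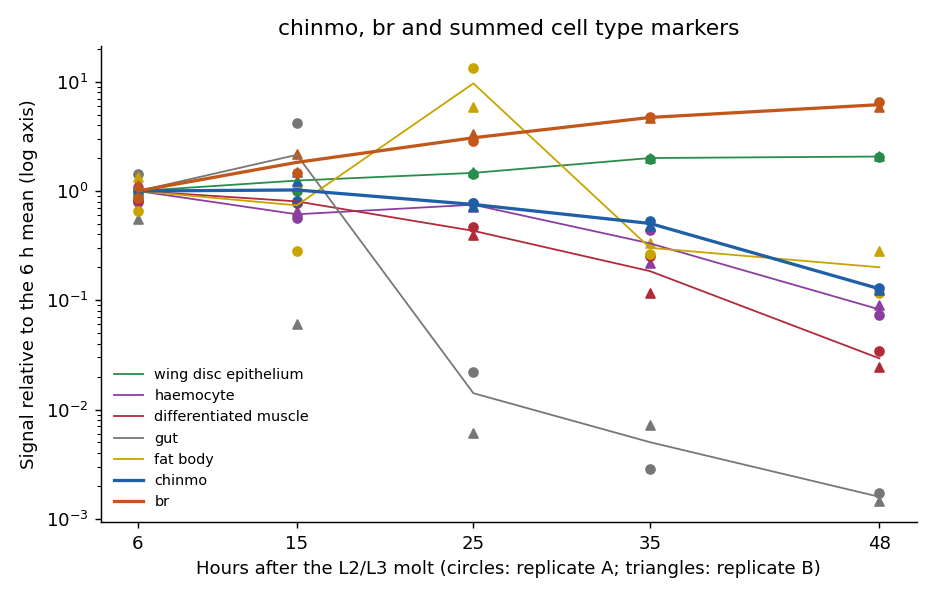
Signal of chinmo and br and summed signal of marker lists for 5 cell types, each divided by its own mean at 6 h, against hours on a log axis; circles are replicate A, triangles replicate B, and lines join the means. Haemocyte and muscle markers end below their 6 h level, as chinmo does, gut markers differ most between the 15 h libraries, and disc epithelium markers are 2.07-fold higher at 48 h than at 6 h.

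chinmo and br belong to a wider set of temporal factors, which mark developmental age in larval tissues. The list was Imp, Syp, lin-28, mamo, ab, Eip93F, Kr-h1, svp, cas, grh and let-7-C, which was not analysed here. Of 9 tested in limma, 3 were higher and 2 lower at 48 h than at 6 h, against 22.3% and 26.8% of all genes, with a median change of 0.15 beside -0.10 for all genes. Syp, an RNA-binding protein that in neuroblasts replaces Imp with age, rose by 2.16 (adjusted p 0.000323), from 7193 and 10197.9 at 6 h to 38254 and 38173 at 48 h. Imp, the RNA-binding protein of young neuroblasts, fell by 1.35 (adjusted p 0.00224), from 4694 and 6400 to 2169 and 2126. Imp read 4483 and 4072 at 35 h, and its last step was not called (log2 -0.99, adjusted p 0.0878). mamo, a BTB zinc finger gene that acts downstream of chinmo in mushroom body neurons, fell by 1.27 (adjusted p 0.00173). Kr-h1, the factor that relays juvenile hormone, rose by 1.86, and grh, a factor of epithelial and late neuroblast identity, by 1.49 (adjusted p 0.00125 and 0.00169). These 5 calls held in all 22 alternatives. Eip93F, the ecdysone-induced factor of the pupal and adult stages, had 16.7 and 13.1 at 48 h and 5.14 and 14.7 at 6 h (log2 0.69, adjusted p 0.448). Its change ranged from 0.012 to 2.75 over the alternatives and passed with quantile normalization (0.0197).

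br is an early target of ecdysone, and most of the ecdysone response list had a higher level at 48 h. Of 18 genes tested among 19, 11 were higher and 4 lower at 48 h than at 6 h, beside 22.3% and 26.8% of all genes, with a median change of 0.83 beside -0.10, and 9 and 4 of these calls held in all 22 alternatives. The receptor partner usp rose by 0.53 (adjusted p 0.00250). The receptor gene EcR had means of 3190, 5279, 7189, 7459 and 5298 at the 5 times, so it was highest at 25 and 35 h, and its rise of 0.73 to 48 h (adjusted p 0.0104) was lost without 6 h A (0.0586) or without 48 h B (0.0719). Eip74EF, an early ETS factor, rose by 1.62, with 718 and 853 at 6 h and 2674 and 3144 at 25 h. Its 48 h values, 2236 and 2576, were below both 25 h libraries. Eip75B, an early nuclear receptor, rose by 0.98, and its signal was 1805 and 1747 at 35 h and 3908 and 3419 at 48 h.

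Other ecdysone genes moved when chinmo made its largest step. From 35 to 48 h, 4 genes of the list were higher and 2 lower, against 0.153% and 0.239% of all genes. The higher ones were Eip75B, Eip78C, ImpE1 and ImpE3, and the lower ones Hr38 and ftz-f1. Eip78C, a nuclear receptor, went from 134.2 and 114.8 to 1931 and 913, a rise of 3.41 (adjusted p 0.0289). ftz-f1, a nuclear receptor gene that gives prepupal tissues their competence to respond to ecdysone, went from 1580 and 1539 to 473 and 597 (log2 -1.55, adjusted p 0.0229). Of these 6 calls of the last step 0 held in all 22 alternatives, and each of the 6 missed the threshold after quantile normalization, as did that of chinmo. edgeR called 2 genes of the list in this step and DESeq2 called 10. Over all 10453 genes tested, edgeR called 5 higher and 5 lower in this step, and DESeq2 247 higher and 322 lower. ImpE2, an ecdysone-inducible gene of everting discs, had a signal of 16.1 to 102 from 6 to 25 h, while br rose, then 3154 and 3951 (35 h) and 78300 and 49804 (48 h). gce, a juvenile hormone receptor, fell from 6 to 48 h (log2 -3.48, adjusted p 0.00368), and so did Cyp18a1, an enzyme that inactivates ecdysone (log2 -3.65, adjusted p 0.00571).

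JAK-STAT signalling is known to raise chinmo in the testis and in eye discs. Of its 11 genes 0 were called by limma or edgeR in any of the 4 neighbouring steps, with 1 or 2 at an unadjusted p under 0.05 in each step and at most 1 called by DESeq2. The counts of calls are near those over all genes, of which few were called. The share of all genes at an unadjusted p under 0.05 was not counted. Per step and direction limma called 0.00957% to 3.09% of the 10453 genes, edgeR 0 to 130 genes and DESeq2 247 to 840. At 48 h against 6 h 2 of the 11 were higher and 4 lower, beside 22.3% and 26.8% of all genes. Their median was -0.42, which becomes 0.13 after quantile normalization, where that of all genes becomes 0.33. The ligands upd1 and upd3 had changes of -1.82 and -2.47 (adjusted p 0.00720 and 0.00603), and both calls were lost after quantile normalization (0.307 and 0.296). upd1 went from a mean of 384 to 109. et, a receptor-like negative regulator, fell by 2.59 (adjusted p 0.00346), which held in all 22 alternatives. Socs36E, a feedback inhibitor, fell by 0.75 (adjusted p 0.0462) in a call lost in 13 of 22 alternatives. The receptor dome was 0.50 higher (adjusted p 0.0473), also lost in 13 of 22. The transcription factor Stat92E was at 7308 and 6738 at 6 h and 6658 and 7163 at 48 h (log2 -0.02, adjusted p 0.839), and the sign of this small value changed with the scaling and with 1 library left out.

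Among the 21 genes tested from a chosen list of genes with a BTB domain, chinmo and br were at opposite ends of the order of changes. Besides them, 19 genes of the family list were tested, of which 7 were higher and 3 lower at 48 h than at 6 h, beside 22.3% and 26.8% of all genes, with a median of 0.30 beside -0.10. By absolute change chinmo ranked 1 of these 21 genes and br 3, but CG6118 (-2.96, SE 0.56) and bab2 (2.30, SE 0.37) lay within their errors of them. CG6118 had 69.4 and 66.7 at 6 h and 5.35 and 11.3 at 48 h, near the low end of detection, and its call was lost after quantile normalization (0.122). bab2, which patterns the proximodistal axis of legs and antennae, went from 306 and 359 to 1715 and 1559 (adjusted p 0.00337). ttk, a repressor of neural fates, went from 2441 and 2725 to 6979 and 6688 (log2 1.41, adjusted p 0.000678). The calls of bab2, ttk and mamo held in all 22 alternatives, and the other 7 did not. On the scale per kb, chinmo ranked 3 among the 21 genes at 6 h and 14 at 48 h, and br ranked 12 and then 3. Cp190, an insulator protein, and psq held ranks 1 and 2 at 6 h, and psq and Cp190 did at 48 h. ab, a BTB factor that is also in the temporal list, was the 1 gene of the 19 besides chinmo and br called between neighbouring times. It was lower at 35 h than at 25 h (log2 -1.10, adjusted p 0.0455), a call lost in 13 of 21 alternatives.

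**Figure D5:**
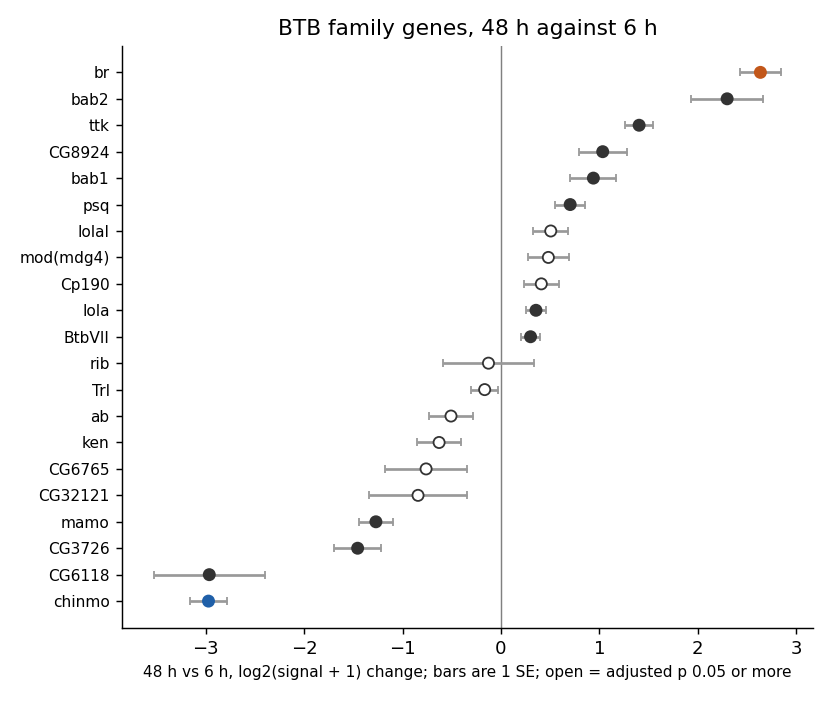
Change from 6 to 48 h on the log2(signal + 1) scale for chinmo, br and 19 other tested genes of the BTB list, with bars of 1 SE. Filled points have an adjusted p under 0.05 in limma. chinmo is lowest at -2.97 and br highest at 2.64, and the bar of CG6118 at -2.96 spans the value of chinmo.

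The genes with a time course most like each of the 2 were found by Pearson's r of log2(signal + 1) over the 10 libraries, as a description of these libraries, which share their times. For chinmo they were CG9674 (r 0.983), CG32241 (0.983), AOX2 (0.983), LManIII (0.980) and Esyt2 (0.977). CG32241 had means of 536, 495, 219, 94.5 and 1.82 at the 5 times, and both its 25 h libraries were below both of 15 h. Its 35 h libraries lay apart (150 in A and 38.7 in B). At 48 h it was near the floor, with 0.669 in A and 2.98 in B, where 1 read equalled 0.669 and 0.596. Esyt2, an extended synaptotagmin, had 2806, 2948, 2890, 1669 and 543. CG9674 spanned far less, from 13079 to 8225, since r does not measure the size of a change. For br they were hng3 (0.997), PlexA (0.996), ss (0.996), ogre (0.995) and mth (0.995). The spineless gene ss, a transcription factor that sets antennal identity, had means of 46.4, 125, 271, 489 and 695, and hng3 had 110, 200, 377, 623 and 917. PlexA, a semaphorin receptor, went from a mean of 12437 to 21688. A course like that of br was common, with 504 of 10451 other genes at r of at least 0.95, while 42 reached that value with chinmo. The r between chinmo and br was -0.78. The choice of measure matters here: over the 5 time means 2 of the 5 genes named for chinmo and 1 of the 5 for br stayed among the top 5, and by Spearman's rho 0 and 0 did.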

How the data were processed

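The deposited table holds signal per gene in 10 libraries. Judged from the values, the authors made it from read counts by dividing each library by a size factor of its own: multiplied back, 100% of the values were whole reads within 0.001. STAR 2.7.10a and featureCounts, without a version, and the builds dm6 and BDGP6 are named per the submitters' processing notes. The normalization tool, the strand setting and any gene filter are not given in the sources used here. Per the labels the molecule was polyA RNA, yet their protocol is one for stranded total RNA with ribosomal RNA removed. No per-sample column was left unused (0).

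limma 3.58.1 in R 4.3.3 was run with an intensity trend, 1 mean per time and 5 residual degrees of freedom on log2(signal + 1), a scale that understates changes of low genes. A gene entered (10453 of 13041) if 2 or more libraries reached a signal of 10. Tests were two-sided, p-values were adjusted after Benjamini-Hochberg over the 10453 genes per comparison, and 0.05 was the threshold. Where no tool is named, an adjusted p of a gene comes from limma. Ratios, correlations and permutation tests (100000 resamples) were computed in Python 3.11.15 with pandas 2.3.3, numpy 2.4.6 and scipy 1.17.1, and plots were drawn with matplotlib 3.10.9. Positions and lengths are from Ensembl BDGP6.54. Simulated counts with the same dispersion for all genes were used to test the limma and edgeR fits, for 48 h against 6 h only. They did not cover the neighbouring steps or the wider spread at 15 h. Alternatives were edgeR 4.0.16 (quasi-likelihood) and DESeq2 1.42.0 on the recovered reads, other pseudocounts, filters and scalings, array weights, a replicate block and libraries left out.

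chinmo, br and all lists were chosen with earlier results of these data known. Other genes named are the 5 with the highest Pearson r with either gene, list members and genes with overlapping exons. The letters A and B were not treated as pairs, since the deviations of replicate A correlated between times at -0.0585 to 0.161. A and B of each time differed more than 2-fold in at least 742 genes, so no pair was 1 library deposited again. The settings applied to list genes, the scale per disc marker signal, and the step shares of the ratio with 1 library left out were chosen after seeing the data. So was the order of libraries counted for chinmo.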

Additional observations from a re-analysis of the deposited data

How the results depend on the processing

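The 6 to 48 h changes (22 alternatives) and the F tests (20) of chinmo and br kept their direction and their side of the threshold, as did the relation of the ratio with hours (13, with r 0.987 to 0.993 when 1 library was left out). For chinmo from 6 to 15 h the sign turned with edgeR (0.059) and DESeq2 (0.039). The chinmo call from 35 to 48 h was lost with quantile normalization (-2.02), a common median (-1.97), edgeR (-1.98) and both 25 h libraries left out (-1.98). The call of its larger fall after 25 h was lost with quantile normalization (-2.16), a common median (-2.08) and edgeR (-2.11). The replicate block also ended both calls (-1.98 with adjusted p 0.0710, and -2.15 with adjusted p 0.0702) and changed no other call of chinmo or br. Among list genes it ended all 6 ecdysone calls from 35 to 48 h (adjusted p 0.0710 to 0.0913) and those of Oatp74D (15 h against 6 h, 0.0780), ab (35 h against 25 h, 0.0641) and dome (48 h against 6 h, 0.0563). From 25 to 35 h, array weights and leaving out both 15 h libraries brought chinmo (-0.58) and br (0.62) past the threshold. Array weights did so for br from 35 to 48 h (0.39), and DESeq2 for br from 6 to 15 h (0.88) and from 15 to 25 h (0.74). The cause of these changes was not tested.

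With 1 library left out, chinmo ranged from -0.31 to 0.31 (15 h against 6 h), from -0.66 to -0.49 (35 h against 25 h) and from -2.07 to -1.90 (48 h against 35 h), and its difference between later and earlier fall from -2.25 to -2.06. br ranged from 0.57 to 1.15, from 0.48 to 1.06 and from 0.51 to 0.73 in its first 3 steps. The log2 ratio at 25 h, -0.01, was -0.17 or 0.14 from 1 library and 0.999 with the longest transcripts. The change of Stat92E was 0.13 with quantile normalization, 0.30 with a common median and 0.060 with edgeR, and -0.082 to 0.035 with 1 library left out.

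Counts over all genes moved widely. Over the settings, 1384 to 4106 genes were lower and 1112 to 3538 higher at 48 h than at 6 h (2798 and 2332 in the report's fit), and 0 to 1138 lower from 35 to 48 h (25). Of the genes called at 48 h against 6 h, 45.46% were higher, 58.79% with a common median and 66.49% after quantile normalization. With 2 libraries a time, differences within the unadjusted intervals given cannot be told from the spread. Larger ones could also miss the adjusted threshold, such as 0.86 for br from 6 to 15 h (limma adjusted p 0.0725).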
